A study of Mus musculus with 6 samples.

Results

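The genes described here are 8 mouse genes that carry lipids between cells or take them up: the secreted carriers Apoe, Apod and Clu, the lipoprotein receptors Vldlr, Lrp1 and Lrp8, the cholesterol exporter Abca1 and the lysolipid importer Mfsd2a. They were picked by gene symbol and are 8 of 23152 genes measured, with 214 of 269751 probe sets. The list was drawn up with earlier results of these arrays known, so the members were in effect chosen by their Ad-Cre against Ad-GFP differences; their values in that contrast are a description without a test. The arrays read total RNA of neural stem cells cultured from embryonic day 14.5 mouse cortex. In each of 3 cell lines, numbered 2, 7 and 8, a culture infected with an adenovirus for Cre recombinase (Ad-Cre), which here switches on mutant IDH, was set beside a culture of that line infected with an adenovirus for green fluorescent protein (Ad-GFP), the control. The series title names the mutation as IDH1-R132H, a change in isocitrate dehydrogenase 1 known from gliomas. Both viruses were used at 100 infectious units per cell (MOI) and washed off after 24 hours. All groups share an adenovirus infection, and 0 arrays had Cre without a mutant allele, so what Cre does and what mutant IDH does cannot be told apart. The sources used here do not name the promoter of the mutant allele, the mouse strain or the time from wash to harvest. There was 1 array per line and virus, so 3 for each virus, and their number limits the precision of every value.

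Lipids travel between brain cells on lipoprotein particles built on apolipoprotein E. Abca1 loads cholesterol and phospholipid onto the carrier, and receptors of the low density lipoprotein (LDL) receptor family take the particles up. Vldlr and Lrp8 are also the receptors for reelin, a secreted protein that guides neuron migration in the cortex, while Lrp1 clears many ligands by endocytosis. Mfsd2a imports lysophosphatidylcholine that carries the omega-3 fatty acid docosahexaenoic acid, and is best known from the endothelium of the blood-brain barrier.

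Neural stem cell markers were bright on the whole. All 13 had probe sets, and their mean log2 signal lay between 11.65 and 11.76 on the Ad-GFP arrays and between 11.46 and 11.70 on the Ad-Cre arrays. With Ad-Cre 4 of them were lower in all 3 lines and 3 higher, beside 16.2% and 22.1% of all genes. Prom1, the stem cell surface protein prominin, was low, at 7.42, 7.12 and 8.19 with Ad-GFP and 6.02, 6.43 and 6.35 with Ad-Cre. Hopx went the other way, from 8.17, 8.04 and 8.40 with Ad-GFP to 8.80, 9.23 and 8.69 with Ad-Cre. Median probe set signals ran from 8.38 to 8.43 over the 6 arrays. Total Idh1 differed little, by 0.18, -0.22 and 0.14 log2 units (Ad-Cre minus Ad-GFP) in lines 2, 7 and 8, and its probe sets were not shown to separate mutant from normal transcript. The Ad-Cre array of line 2 stood apart. Its correlation across genes with each of the 5 remaining arrays was 0.969 to 0.976, against 0.988 to 0.996 among those 5, and it had the highest Gfap (11.27, against at most 8.33) and the lowest Mki67 (10.10, against at least 12.43), which mark astrocytes and dividing cells. Values of members and named genes that move by over 1.5 times without line 2 are therefore also given without it.

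Mfsd2a, Apoe and Lrp1 had lower signals with Ad-Cre in all 3 lines, Vldlr had higher signals in all 3, and Abca1, Clu, Lrp8 and Apod went different ways in different lines. Over all genes, 16.2% were lower in all 3 lines and 22.1% higher. In the same 4 genes the Ad-Cre and Ad-GFP arrays did not overlap, and neither did they in 20.9% of all genes, both directions together. Nothing is read from these counts, since this contrast chose the members. In the limma fit, blocked by line, 0.0% of the 23152 genes had an adjusted p under 0.05 for Ad-Cre against Ad-GFP, and the smallest was 0.0669. That count of 0 depended on the setting: it was 1211 genes without line 2, 241 with line as a random block, 82 with no block and 73 with the mean of probe sets. The fit without line 2 rests on lines 7 and 8 alone and leaves 1 residual degree of freedom. Without line 7 or without line 8 the count stayed at 0. At an unadjusted p under 0.05 there were 12.6% of genes, 5.58% lower and 7.04% higher. The median difference of all genes was 0.03 log2 units. The plot of gene signals by array shows the parallel slopes of the first group and the crossing of the second.

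**Figure D1:**
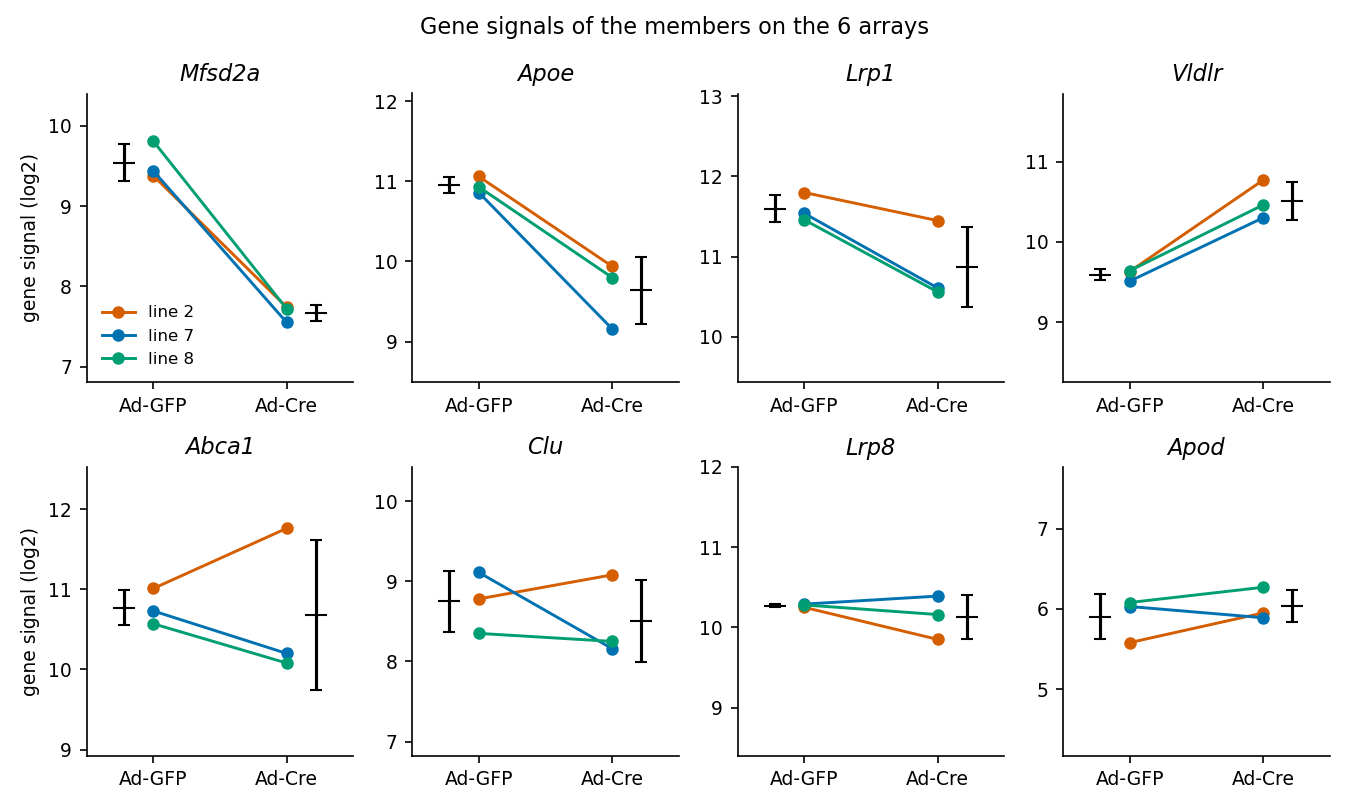
Log2 gene signal of the 8 members with Ad-GFP and Ad-Cre; each coloured pair of points is a cell line (2, 7 or 8), the black bars are means with SD (n = 3 lines), and every panel spans the same number of log2 units. Mfsd2a, Apoe and Lrp1 slope down and Vldlr slopes up in every line, while Abca1 goes up in line 2 from 11.01 to 11.76 and down in the other lines.

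Mfsd2a, the importer of lysophosphatidylcholine, had the largest difference of the 8 genes. Its log2 signal was 9.38, 9.44 and 9.81 with Ad-GFP in lines 2, 7 and 8, and 7.74, 7.55 and 7.72 with Ad-Cre. Every Ad-Cre array lay below every Ad-GFP array, by differences of -1.65, -1.88 and -2.09. The mean difference was -1.87 ± 0.13 (SE over 3 lines), or 3.66-fold lower. Group means were 9.54 ± 0.23 (SD, n = 3) with Ad-GFP and 7.67 ± 0.10 with Ad-Cre, so the control lines spread more than the Ad-Cre lines. The 250 bases before and 50 bases after the RefSeq start of Mfsd2a are shown because this gene leads the set (GRCm38.p6, chr4:122961139-122961438, minus strand, 5′ to 3′; capitals mark the CCAAT box, here in reverse as ATTGG, which begins 54 bases before the start):
Mfsd2a: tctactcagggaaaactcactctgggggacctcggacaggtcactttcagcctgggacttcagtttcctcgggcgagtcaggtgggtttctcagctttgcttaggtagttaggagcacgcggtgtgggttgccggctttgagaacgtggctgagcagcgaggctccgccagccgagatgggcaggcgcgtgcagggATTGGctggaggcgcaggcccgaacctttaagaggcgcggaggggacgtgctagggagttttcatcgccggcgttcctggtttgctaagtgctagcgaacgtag

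Of the 17 Mfsd2a probe sets, 15 were lower in all 3 lines and none was higher in all 3, beside 16.5% of all probe sets lower in every line and 17.5% higher in every line. In 14 of the 17 the arrays of both viruses did not overlap, against 8.14% of all probe sets as lower and 8.42% as higher. Sizes varied widely among them, from -4.12 to -0.36 with a median of -1.78. The probe set at -4.12 read 10.61, 10.75 and 11.31 with Ad-GFP and 5.89, 7.69 and 6.72 with Ad-Cre. The brightest one, with a mean signal of 9.85, read -0.92, so a gene value taken from it alone would be smaller than the median polish gives. Several endothelial genes were looked at because Mfsd2a is a marker of that cell type. The 11 endothelial markers, Mfsd2a not among them, had a mean signal between 6.87 and 6.96 with Ad-GFP and between 6.85 and 7.07 with Ad-Cre. Of them, 2 were lower in all 3 lines and 2 higher, beside 16.2% and 22.1% of all genes. Cldn5, the tight junction protein that defines brain endothelium, was between 6.21 and 6.57 on all arrays, around the lower quartile of gene signals (6.34), and read -0.10, -0.28 and -0.24 in lines 2, 7 and 8. Emcn, another of the 11 and dimmer still, went the other way, by 0.2, 0.8 and 0.7. The other lower marker was Slc2a1, the brightest of the 11, at 10.10 to 11.50. It read -1.06, -0.24 and -0.20 in lines 2, 7 and 8. The median difference of the 11 was 0.09. The part of endothelial cells in the Mfsd2a values was not tested.

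Apoe, the main lipid carrier secreted by glia, was lower with Ad-Cre on all arrays. It read 11.06, 10.86 and 10.93 with Ad-GFP in lines 2, 7 and 8, and 9.94, 9.16 and 9.80 with Ad-Cre. The lines lay close together with Ad-GFP and further apart with Ad-Cre (SD of 0.10 and 0.42), and line 7 had the largest difference (-1.70; lines 2 and 8 read -1.11 and -1.13). The mean difference was -1.31 ± 0.19 (SE), or 2.49-fold lower. All 12 Apoe probe sets were lower in all 3 lines, between -1.94 and -0.35, and in 11 of them the arrays did not overlap. Over all probe sets these shares were 16.5% and 8.14%. The 6 brighter probe sets had a median difference of -1.26 and the 6 dimmer ones -1.74. RefSeq lists 3 starts for Apoe, and the sequence around the outermost is shown since this ligand is shared by the receptors below (GRCm38.p6, chr7:19699139-19699438, minus strand, 5′ to 3′; it has no capitals because none of the motifs searched was found there):
Apoe: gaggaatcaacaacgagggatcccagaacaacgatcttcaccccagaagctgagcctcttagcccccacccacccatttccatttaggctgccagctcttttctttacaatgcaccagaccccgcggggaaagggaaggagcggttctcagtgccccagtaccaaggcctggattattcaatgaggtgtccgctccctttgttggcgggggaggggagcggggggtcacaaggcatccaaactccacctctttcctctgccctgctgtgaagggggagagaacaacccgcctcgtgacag

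Clu, or clusterin, a secreted chaperone that also rides on lipoproteins, had no common direction. It read 8.78, 9.11 and 8.35 with Ad-GFP and 9.08, 8.16 and 8.25 with Ad-Cre in lines 2, 7 and 8, and the groups overlapped. The differences were 0.30, -0.95 and -0.10, with a mean of -0.25 ± 0.37 (SE), and without line 2 the mean was -0.52. Its 13 probe sets disagreed with each other: 1 was lower and 2 were higher in all 3 lines, beside 16.5% and 17.5% of all probe sets. Differences ran from -0.79 to 0.48. The brightest read 10.90, 11.46 and 10.34 with Ad-GFP and 11.64, 9.39 and 9.29 with Ad-Cre, which gives 0.74, -2.07 and -1.05 in lines 2, 7 and 8, a wider split between lines than in the gene value. The 7 brighter probe sets had line medians of 0.72, -1.34 and -0.36, and the 6 dimmer ones 0.16, -0.35 and 0.03. Apod, apolipoprotein D, a lipocalin that binds small lipids, was dim. Its mean signals of 5.90 ± 0.28 (SD, n = 3) with Ad-GFP and 6.04 ± 0.20 with Ad-Cre lay below the lower quartile of gene signals, 6.34, so its differences rest on low signals; the other 7 members lay above. Apod read 5.58, 6.03 and 6.08 with Ad-GFP and 5.95, 5.89 and 6.27 with Ad-Cre, with overlap, and the mean difference was 0.14 ± 0.15 (SE), or 0.02 without line 2; 8 of its 9 probe sets had no common direction.

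Among the receptors, Lrp1 was lower and Vldlr higher. Lrp1, the large endocytic receptor for apolipoprotein E and many proteases, read 11.80, 11.54 and 11.46 with Ad-GFP and 11.45, 10.61 and 10.56 with Ad-Cre in lines 2, 7 and 8. All Ad-Cre arrays lay below all Ad-GFP arrays, but the line 2 Ad-Cre array only just, at 11.45 against 11.46. The differences were -0.35, -0.94 and -0.90, a mean of -0.73 ± 0.19 (SE) or 1.66-fold lower, and -0.92 without line 2. Its 78 probe sets ran nearly all one way. Of them, 76 were lower in all 3 lines, with 34 free of overlap, beside 16.5% and 8.14% of all probe sets. Differences ran from -1.43 to -0.22 with a median of -0.76. Lines 7 and 8 had all 78 lower, and line 2 had 76. The 39 brighter ones had a median of -0.76 and the 39 dimmer ones -0.82.

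Vldlr, the very low density lipoprotein receptor, was the member with higher signals. It read 9.63, 9.51 and 9.64 with Ad-GFP and 10.77, 10.30 and 10.46 with Ad-Cre. The Ad-GFP arrays were nearly level (9.59 ± 0.07, SD, n = 3) and all Ad-Cre arrays lay above them (10.51 ± 0.24). The differences of 1.14, 0.79 and 0.82 averaged 0.91 ± 0.11 (SE), or 1.89-fold higher. Of 23 probe sets, 19 were higher in all 3 lines and 17 had no overlap, beside 17.5% and 8.42% of all probe sets. Differences ran from -0.18 at the dimmest, with a mean signal of 5.92, to 1.43. The 12 brighter probe sets had a median of 0.94 and the 11 dimmer ones 0.59. RefSeq lists 2 starts for Vldlr, and the downstream one is shown because it holds the motif TGATGNAA, the composite element bound by ATF4 and C/EBP factors, through which amino acid and unfolded protein stress act on many genes (GRCm38.p6, chr19:27216770-27217069, plus strand, 5′ to 3′; capitals mark the motif, here in reverse, which begins 200 bases before the start):
Vldlr: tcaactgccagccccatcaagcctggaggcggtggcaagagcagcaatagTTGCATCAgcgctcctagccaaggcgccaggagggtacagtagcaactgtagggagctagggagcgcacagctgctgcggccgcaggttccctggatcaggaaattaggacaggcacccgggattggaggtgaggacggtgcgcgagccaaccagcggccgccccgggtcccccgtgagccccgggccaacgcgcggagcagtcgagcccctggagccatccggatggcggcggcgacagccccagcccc

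Lrp8, the partner of Vldlr in reelin signalling (also called ApoER2), went different ways in different lines, by small amounts. It read 10.25, 10.29 and 10.28 with Ad-GFP and 9.85, 10.39 and 10.16 with Ad-Cre, and the groups overlapped. The mean difference was -0.14 ± 0.14 (SE), from -0.39, 0.10 and -0.12 in lines 2, 7 and 8, and -0.01 without line 2. Of its 23 probe sets, 19 had no common direction, and the brightest read -0.10. In all 3 lines 2 were lower and 2 higher, beside 16.5% and 17.5% of all probe sets. A single probe set departed from the rest at 0.89, reading 8.23, 8.25 and 7.25 with Ad-GFP and 9.41, 8.90 and 8.09 with Ad-Cre. Whether Vldlr and Lrp8 differ from each other in their response was not tested.

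Abca1, which exports cholesterol to apolipoproteins, was higher with Ad-Cre in line 2 and lower in lines 7 and 8. It read 11.01, 10.73 and 10.57 with Ad-GFP and 11.76, 10.20 and 10.08 with Ad-Cre, so the highest and the lowest arrays both carried Cre. The differences of 0.74, -0.54 and -0.49 averaged -0.10 ± 0.42 (SE), and -0.51 without line 2. The split ran through the whole transcript as probed: the count of lower probe sets was 0 of 39 in line 2, 35 for line 7 and 36 for line 8, and all 39 had mixed directions. That order, higher in line 2 and lower in the others, was found in 10.8% of all genes. At its brightest probe set the differences were 0.66, -0.65 and -0.42. The Abca1 start is shown for the element of the oxysterol receptor LXR, the nuclear receptor through which cells raise cholesterol export (GRCm38.p6, chr4:53159846-53160145, minus strand, 5′ to 3′; capitals mark the match to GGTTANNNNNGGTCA, in reverse, which begins 67 bases before the start):
Abca1: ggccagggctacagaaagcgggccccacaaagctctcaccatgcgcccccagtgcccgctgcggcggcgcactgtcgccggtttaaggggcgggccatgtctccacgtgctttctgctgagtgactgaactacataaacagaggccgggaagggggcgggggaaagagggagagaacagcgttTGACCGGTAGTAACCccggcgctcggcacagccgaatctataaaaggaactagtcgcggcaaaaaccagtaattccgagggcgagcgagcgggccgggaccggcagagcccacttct

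The promoter table held 12 starts for 7 of the 8 members, with no entry for Clu. All sequences are from RefSeq, 300 bases each, and 8 motifs were searched on both strands, chosen with these sequences in view. A match describes letters only. The Abca1 form of the LXR element was in 1 of the 12 and in 0.0487% of all 32851 starts, and the plain LXR repeat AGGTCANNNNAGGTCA was in none of the 12 and in 0.0152% of all. TGATGNAA was in 2 of the 12, at Vldlr and at an inner start of Apoe, and in 3.97% of all. The sterol element TCACNCCAC, at 1.24% of all starts, was in none. Of the general promoter motifs, the GC box GGGCGG was at Abca1, Lrp1 and Vldlr (35.7% of all starts), the CCAAT box CCAAT at Mfsd2a and Vldlr (37.4%), the TATA box TATAAA at Abca1 and the inner Apoe start (13.6%) and the E-box CACGTG at Abca1 (7.15%). In the Apoe match, 2 copies of TATAAA on opposite strands overlap.

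**Figure D2:**
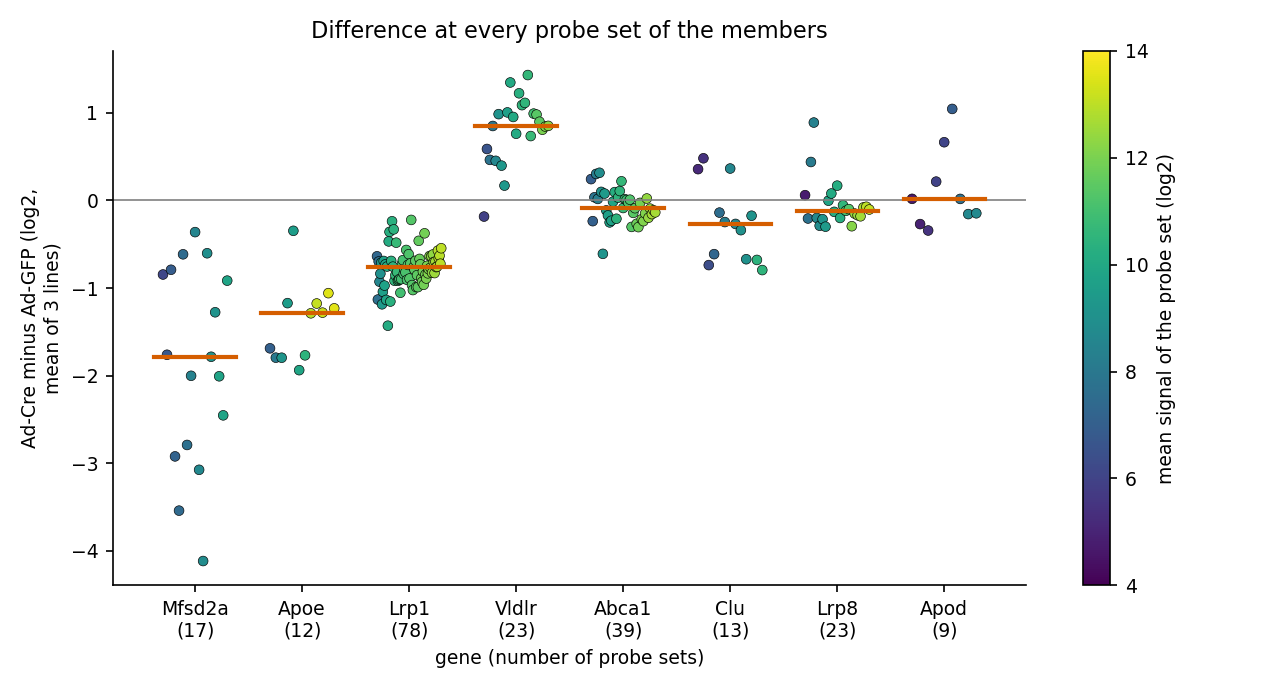
Ad-Cre minus Ad-GFP difference (log2, mean of 3 lines) at each of the 214 probe sets, by gene, ordered from dim to bright within a gene and coloured by mean signal; orange bars are medians. Mfsd2a spreads from -4.12 to -0.36 around a median of -1.78, Lrp1 is the tightest of the lower genes, and Abca1 and Lrp8 lie around 0 with medians of -0.09 and -0.12.

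**Figure D3:**
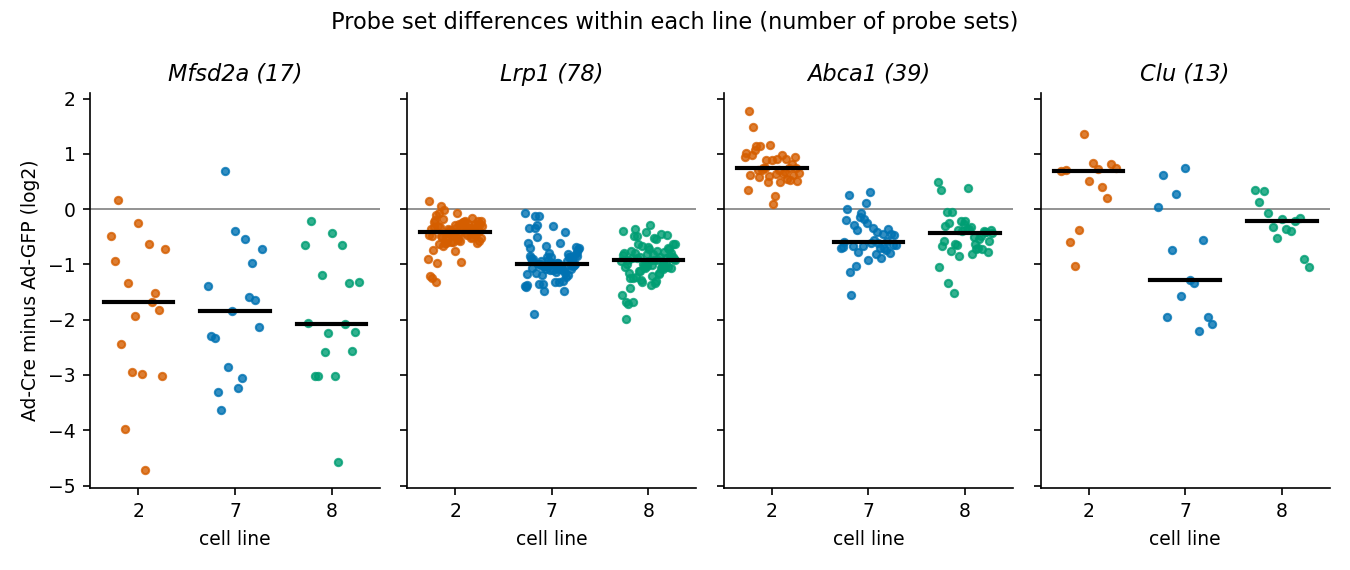
Probe set differences (Ad-Cre minus Ad-GFP, log2) within lines 2, 7 and 8 for Mfsd2a, Lrp1, Abca1 and Clu; points are probe sets, ordered from dim to bright, and black bars are medians. Nearly all Mfsd2a and Lrp1 probe sets lie below 0 in each line, while all 39 Abca1 probe sets lie above 0 in line 2 and most lie below 0 in lines 7 and 8.

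Differences between the lines themselves were not used to choose the members and could be tested. Averaged over both viruses, Lrp1 was at 11.62, 11.08 and 11.01 and Abca1 at 11.39, 10.46 and 10.33 in lines 2, 7 and 8, so line 2 had the highest level of both. By limma's moderated F test, 0 of the 8 members differed between lines, with adjusted p from 0.739 to 0.749, and 1, Lrp1, had an unadjusted p under 0.05 (0.0343; Abca1 read 0.0539). Among all genes 0.00864% passed this test after adjustment and 4.92% before it. With 2 arrays per line, these p-values do not show that the lines are alike.

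Markers of other cell types differed between the viruses as well. Of 14 astrocyte markers other than the members, 4 were lower in all 3 lines and 1 was higher. Their mean signal was between 10.29 and 10.41 with Ad-GFP and between 9.80 and 10.68 with Ad-Cre, with the line 2 Ad-Cre array at the top. Aldh1l1, a folate enzyme, differed by -1.43, -2.17 and -1.36 and the gap junction protein Gja1 by -0.47, -1.18 and -0.67 in lines 2, 7 and 8, lowest in line 7 as Apoe was. The water channel Aqp4 read -0.28, -2.18 and -1.63. Gfap, by contrast, differed by 3.79 in line 2 and by -0.19 and -0.56 in lines 7 and 8, and Sparcl1, a matrix protein, by 2.99, 1.36 and 0.56. Mki67 read -2.56, -0.20 and -0.33. Of 13 markers of the oligodendrocyte lineage, 6 were lower in all 3 lines and 0 higher, where 16.2% and 22.1% of all genes were. Their mean signal was between 9.30 and 9.40 with Ad-GFP and between 8.53 and 8.68 with Ad-Cre, but the median difference was -0.17. Pdgfra (-2.72), Gpr17 (-2.86), Ugt8a (-1.46) and Bcas1 (-1.28) read lowest. Olig1 (-0.17), Olig2 (-0.01) and Cspg4 (0.01) differed little, and Sox10 read 0.43, -0.56 and -0.59 in lines 2, 7 and 8. Of 14 neuron markers, 5 were lower in all 3 lines and 2 higher, and their mean signal was between 8.49 and 8.59 with Ad-GFP and between 8.05 and 8.44 with Ad-Cre. The immature neuron gene Dcx read -1.77, -1.82 and -1.81 in lines 2, 7 and 8, the synaptic gene Snap25 -3.31, -2.28 and -1.75 and Elavl3 -1.15, -0.64 and -0.90. Of 11 fibroblast, meningeal and pericyte markers, 2 were lower in all 3 lines, Acta2 (-3.04, -3.15 and -0.87) and Pdgfrb, and 4 were higher. These genes were picked after their values were seen, and some with larger differences were left out. Slc6a11, an astrocyte marker, read -1.28, -1.48 and -0.69 in lines 2, 7 and 8. The 2 higher neuron markers, Neurod1 and Rbfox3, read 0.21, 1.95 and 0.84, and 0.62, 0.31 and 0.22. Foxc1, 1 of the 4 higher fibroblast, meningeal and pericyte markers, read 0.47, 0.89 and 1.13. The part of any of these cell types in the values of the members was not tested. Fewer cells of a type and less RNA per cell cannot be told apart in such cultures. Microglia can also make Apoe; the 12 measured microglia and macrophage markers had mean signals between 7.19 and 7.21 with Ad-GFP and between 7.28 and 7.34 with Ad-Cre, with 0 lower in all 3 lines and 7 higher.

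The wider pathway was described with 9 lists of genes, 164 distinct genes with the members left out. The lists were chosen with earlier results of these arrays known, so their counts and shares are a description and nothing is read from them. None of the 164 genes had an adjusted p under 0.05 in the limma fit of all genes, and the lowest was 0.102. At an unadjusted p under 0.05 there were 18 lower and 13 higher, 18.9% of the 164 beside 12.6% of all genes, and the median difference was -0.01. List medians stayed between -0.14 and 0.06. Without line 2, 11 of the 164 genes had a limma adjusted p under 0.05. They were 8 lower genes (4.88%, beside 2.57% of all genes) and 3 higher ones (1.83%, beside 2.66%). The lower ones were Lipg, Scd1, Abcd2, Pla2g7, Abcg4, Angptl4, Dab2 and Soat1, and the higher ones Smpdl3b, Stard5 and Ldlrad3. Abcd2 and Smpdl3b went the other way in line 2, by 0.29 and -0.92. Their differences were -0.67 and 0.63 without line 2, and -0.35 and 0.11 with all 3 lines. The plot of these lists shows the lipases reaching furthest to the left, through Pla2g7 alone (-4.44). The next lowest gene of the 9 lists was Abcg4, an ABC transporter, at -1.35.

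**Figure D4:**
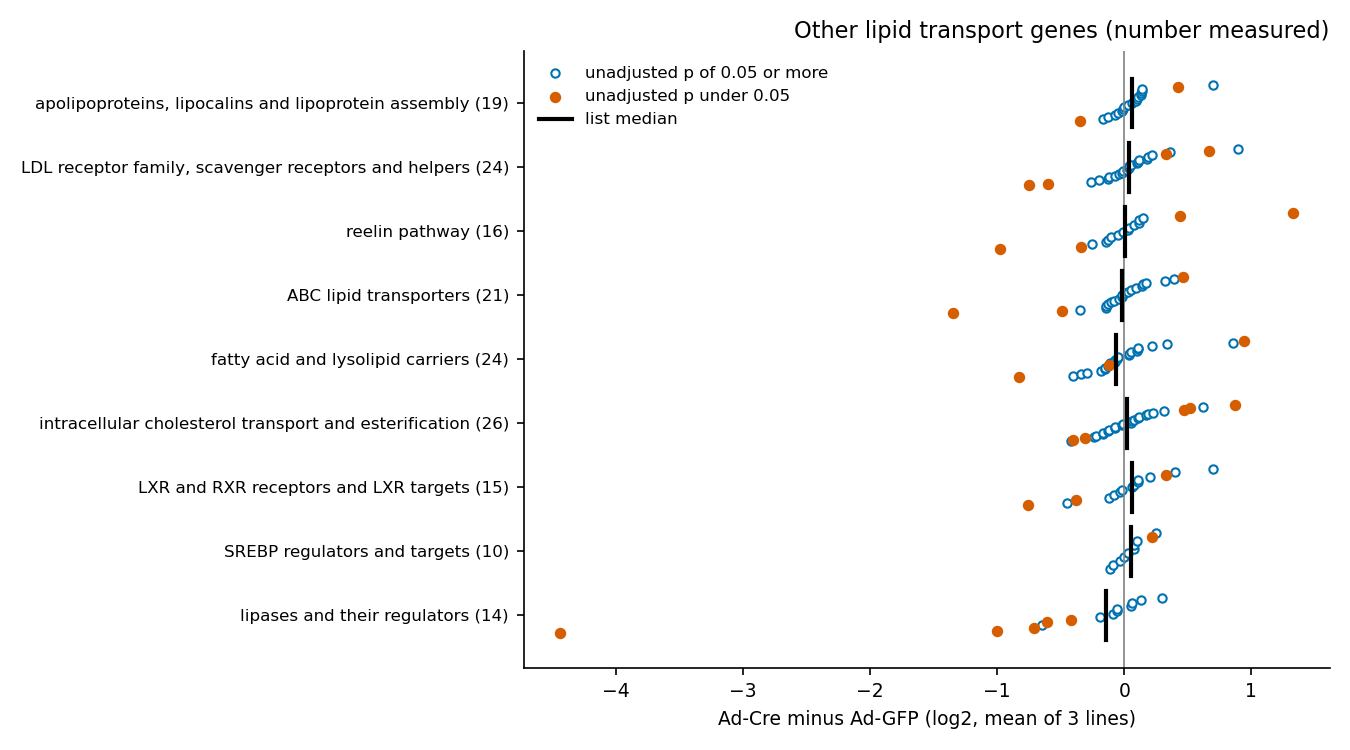
Ad-Cre minus Ad-GFP difference (log2, mean of 3 lines) of each measured gene in the 9 lists, without the 8 members; filled points have an unadjusted limma p under 0.05 and black bars are list medians. No gene passed after adjustment over all genes; Pla2g7 lies alone at -4.44, and Reln is the highest at 1.33, or 0.64 without line 2.

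Of 14 measured lipases and proteins that control them, 5 had an unadjusted p under 0.05 as lower and 0 as higher, where 5.58% and 7.04% of all genes did. None passed after adjustment, 6 of the 14 were lower in all 3 lines and 2 higher, and the median was -0.14, or -0.02 with the brightest probe set of each gene. Lipg, endothelial lipase, read 7.57, 7.74 and 7.69 with Ad-GFP and 6.89, 6.73 and 6.37 with Ad-Cre, a difference of -1.0 ± 0.14 (limma SE; limma adjusted p = 0.102). Angptl4, which inhibits lipoprotein lipase, read -0.61 ± 0.09 (limma adjusted p = 0.102), and Mgll, which splits monoacylglycerols, -0.71 ± 0.15 (limma adjusted p = 0.192). Pla2g7, a phospholipase carried on lipoproteins, read -4.44 ± 0.65 (limma adjusted p = 0.103), with -5.74, -5.13 and -2.45 in lines 2, 7 and 8. Lipg, Pla2g7, Mgll, Lpl and Angptl4 were lower on every Ad-Cre array than on any Ad-GFP array, Angptl4 only just, at 7.58 against 7.62. Pnpla2 and Lipc were higher on every Ad-Cre array. Lipc, at 5.92 to 6.15, lay below the lower quartile of gene signals (6.34) and Lpl, at 5.92 to 6.54, around it, so both rest on low signals. Over all genes the arrays did not overlap in 20.9%, both directions together. Without line 2 the list median was -0.23. This list too was chosen with earlier results of these arrays known, so its counts are a description.

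In the LDL receptor family and the receptors that work with it, values went both ways. Of 24 measured genes, 2 were lower and 2 higher at an unadjusted p under 0.05, with a median of 0.04. Lrp2, or megalin, read -0.75 ± 0.14 and Lrp4, which acts at synapses, -0.60 ± 0.14 (limma adjusted p = 0.162 and 0.207). Sorl1, a sorting receptor, read 0.67 ± 0.12 and Ldlrad3 0.33 ± 0.07 (limma adjusted p = 0.138 and 0.198). In the reelin list, 2 of 16 genes were lower and 2 higher by that measure, with a median of 0.01. Reln itself read 7.68, 7.63 and 7.73 with Ad-GFP and 10.39, 7.84 and 8.80 with Ad-Cre, higher in each line but by 2.71, 0.21 and 1.07, with a mean of 1.33 ± 0.48 (limma adjusted p = 0.369), or 0.64 without line 2. Dab1, the adaptor that both reelin receptors bind, read -0.14 ± 0.18, Dab2, an endocytic adaptor, -0.98 ± 0.22, the kinase Src -0.34 ± 0.09 and the integrin Itga3 0.44 ± 0.13, with limma adjusted p between 0.198 and 0.785. Dab1 was named outside the rule, for its place in the pathway, after its values were seen.

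Among the other carriers, 1 of 19 apolipoprotein, lipocalin and assembly genes was lower and 1 higher at an unadjusted p under 0.05 (median 0.06). Lcat, which esterifies cholesterol on particles, read -0.35 ± 0.12 and Ptgds, a lipocalin, 0.42 ± 0.15 (limma adjusted p = 0.352 and 0.357). Pltp, phospholipid transfer protein, read 1.27, -0.25 and 1.07 in lines 2, 7 and 8. Apol6 read -0.17 ± 0.08 at low signals, 6.12 to 6.39, around the lower quartile of gene signals (6.34). Of 21 other ABC lipid transporters 2 were lower and 1 higher (median -0.02). Abcg4, a cholesterol exporter of neural cells, read 9.80, 9.53 and 9.92 with Ad-GFP and 7.91, 8.15 and 9.14 with Ad-Cre, or -1.35 ± 0.23 (limma adjusted p = 0.128). The phospholipid translocase Abcb4 read -0.49 ± 0.08 (limma adjusted p = 0.120), Abca2 0.46 ± 0.17 and Abca7 0.39 ± 0.18.

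For fatty acid and lysolipid carriers, 2 of 24 genes were lower and 1 higher by the same measure (median -0.07). Acsl6, which activates docosahexaenoic acid in brain, read -0.83 ± 0.24, but -1.43 in line 2 and -0.23 and -0.84 in lines 7 and 8. The fatty acid binding proteins Fabp7 and Fabp5 read -0.12 ± 0.04 and -0.34 ± 0.13, and caveolin 2, Cav2, 0.94 ± 0.26, all with limma adjusted p between 0.280 and 0.399. Of 26 genes of cholesterol transport inside cells, 2 were lower and 4 higher (median 0.02). Stard5, which binds sterols, read 0.52 ± 0.09 (limma adjusted p = 0.134) and was nearly equal in the lines at 0.49, 0.58 and 0.50. Soat1, which esterifies cholesterol for storage, read -0.31 ± 0.08, the sterol transporter Gramd1b 0.87 ± 0.25 and Scp2 -0.40 ± 0.12. In the LXR list, 2 of 15 were lower and 1 higher (median 0.06, but -0.04 without line 2 or without line 7). Scd1, a fatty acid desaturase, read -0.38 ± 0.06 (limma adjusted p = 0.102), Smpdl3a -0.76 ± 0.24, the LXR-beta gene Nr1h2 0.33 ± 0.11 and its partner Rxra 0.40 ± 0.16. Of 10 regulators and targets of SREBP, the factor that switches on LDL receptor and sterol genes, 0 were lower and 1 higher (median 0.05), with Scap at 0.22 ± 0.08, Insig2 at 0.25 ± 0.12, Hmgcs1 at -0.11 ± 0.06 and Srebf2 at 0.10 ± 0.07. Several of the genes named from the lists moved by over 1.5 times, or turned sign, when line 2 was left out. Without it the carriers and transporters Lcat, Ptgds, Pltp, Abca2 and Abca7 read -0.23, 0.23, 0.41, 0.23 and 0.15. The fatty acid genes Cav2, Acsl6 and Fabp5 then read 0.61, -0.53 and -0.19, and the reelin pathway genes Itga3 and Dab1 read 0.28 and 0.03. The sterol-related genes Gramd1b, Smpdl3a, Nr1h2, Rxra and Hmgcs1 read 0.51, -0.42, 0.22, 0.20 and -0.06.

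The genes whose signals ran most like those of Apoe and of Vldlr over the 6 arrays were sought among 10540 brighter, named genes by Pearson's r. For Apoe they were Ednrb, an endothelin receptor (r = 0.998), Sox2ot (0.991) and D2hgdh, the enzyme that oxidises D-2-hydroxyglutarate (0.983). D2hgdh read 8.22, 8.22 and 8.12 with Ad-GFP and 7.81, 7.38 and 7.79 with Ad-Cre in lines 2, 7 and 8. Ednrb followed the order of Apoe at a far smaller size, from 13.52, 13.50 and 13.51 to 13.41, 13.32 and 13.38. For Vldlr they were Cdh22, a cadherin (0.997), Cd164 (0.996) and Rara, a retinoic acid receptor (0.996). Cdh22 read 9.67, 9.63 and 9.80 with Ad-GFP and 10.73, 10.33 and 10.49 with Ad-Cre. These are descriptions over 6 arrays that share lines and viruses, with no p.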

How the data were processed

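Total RNA of 6 cultures was read on 1 Affymetrix array each. The authors deposited log2 signals of probe sets; the submitters' processing notes name RMA and Affymetrix Expression Console, and the sources used here give no version, setting or genome build. RMA forces the arrays to 1 distribution and can hide a shift common to most genes, and low signals hold background. Of 269751 probe sets, 233753 had 1 symbol in GEO's platform annotation, 5106 several and 30892 none. Median polish of those with 1 symbol gave 23152 genes.

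Virus and line came from the titles; the description field carries marks that run the other way in line 8, so the labels of line 8 were also exchanged. Under the titles' labels the line 8 differences correlated across genes with those of lines 7 and 2 at 0.556 and 0.397, and 2923 genes had an unadjusted limma p under 0.05; with the exchange, 418 did. Genes were tested with limma 3.58.1 in R 4.3.3 with virus and line as terms, a variance trend, two-sided tests and Benjamini-Hochberg adjustment at 0.05 over all genes; the script was tested on simulated data. Replicates are lines, so p-values for the virus rest on how far the Ad-Cre minus Ad-GFP difference varied from line to line. Level differences between lines are taken out by the line term. The fit leaves 2 residual degrees of freedom, or 1 when a line is left out, and limma moderates the variance of each gene with that of the other genes. The line number pairs arrays because the series design gave each line each virus; deviations of same-numbered arrays from their virus mean correlated across genes at 0.226, 0.163 and 0.333.

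SEs of members are those of the 3 line differences; SEs of other genes are limma's. Members, lists and motifs were chosen with earlier results of these data known. All 8 members were named, with at most 4 genes per list by lowest p and 3 per likeness search (Apoe and Vldlr); Idh1, Gfap and Mki67 gave context. List symbols were matched by symbol or by a synonym in a GRCm38.p6 gene table. Alternatives were other probe set summaries, normalisations, blocks and filters, and leaving out each line.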

Additional observations from a re-analysis of the deposited data

Results flagged for a closer look

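Several genes went in opposite directions in different lines, and with 1 pair of arrays per line none of these differences was tested. Between the highest and the lowest line, the Ad-Cre minus Ad-GFP difference spanned 1.28 log2 units for Abca1 and 1.25 for Clu, with line 2 highest in both. It spanned 0.52 for Apod, which was dim, and 0.50 for Lrp8. Of the list genes named, Smpdl3b spanned 1.61, Pltp 1.51, Abcd2 1.0, Dab1 0.82 and Hmgcs1 0.23. Of the context genes, Gfap spanned 4.35, the widest of all genes listed here, and Idh1 0.40. Rgma, Shisa4 and Ptdss2, named for their likeness to Abca1, spanned 1.02, 0.73 and 0.37.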

How the results depend on the processing

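The directions of Mfsd2a, Apoe, Lrp1 and Vldlr were kept in all 12 alternatives, with ranges of -1.99 to -0.48, -1.41 to -0.56, -0.92 to -0.13 and 0.37 to 0.98. The smallest value of each came from exchanging the line 8 labels, which turns the sign of that line by construction. Many of the 12 could not have turned these directions. With each virus on each line, the block, the variance trend and the filter for dim genes leave a mean difference unchanged. Leaving out a line cannot turn the sign of a gene that goes the same way in every line. Only the other probe set summaries, the normalisations and the label exchange could have turned these directions. The brightest probe set alone gave Mfsd2a -0.92, Apod -0.15 and Clu -0.79. The sign of Clu (-0.79 to 0.10), Abca1 (-0.51 to 0.23) and Apod (-0.15 to 0.28) depended on the setting; Abca1 was 0.13 without line 7 and 0.10 without line 8. No member passed the line test in 79 alternative tests (adjusted p from 0.521 to 1). Genes past the threshold for the virus numbered 0, and 82 with no replicate block, 241 with the line as a random block and 73 with the mean of probe sets, and leaving out a line gave 0 to 1211, the latter without line 2. Probe sets past it were 0, with 67 and 362 under the same block settings, and 0 without any line. Genes past the line test numbered 2, with 1 for the brightest probe set, 0 with line 8 exchanged and 0 to 37 with a line left out. The fatty acid list median of -0.07 moved to -0.03 (brightest probe set), -0.02 (line 8 exchanged) and -0.09 to -0.03 (a line left out), the LXR list median of 0.06 to between -0.04 and 0.03 (a line left out) and 0.10 (brightest probe set), and the lipase list median of -0.14 to -0.08 (mean of probe sets), -0.02 (brightest), -0.05 (line 8 exchanged) and -0.23 to -0.12. The causes were not tested. Signal over background limits Apod most.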

Other observations

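The search for genes of like pattern was extended, after the values were seen, to 3 more members. Signals most like Mfsd2a over the 6 arrays were those of Zfp763 (r = 0.993), Eogt, a glycosyltransferase (0.993), and Hipk2, a kinase (0.991). Eogt read 8.51, 8.51 and 8.59 with Ad-GFP and 7.46, 7.49 and 7.48 with Ad-Cre in lines 2, 7 and 8. Signals most like Lrp1 were those of the protocadherins Pcdh15 (0.997) and Pcdhb12 (0.993) and of Fam123b (0.996). Pcdh15 read 10.93, 10.44 and 10.01 with Ad-GFP and 9.89, 7.92 and 7.73 with Ad-Cre. Signals most like Abca1, with its opposite direction in line 2, were those of Shisa4 (0.996), Rgma, a repulsive guidance molecule (0.996), and Ptdss2, a phosphatidylserine synthase (0.995). Rgma read 12.85, 12.70 and 12.57 with Ad-GFP and 13.45, 12.35 and 12.15 with Ad-Cre. With 6 arrays and 10540 genes searched, values of r this high are a ranking and carry no p.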
